A study of Rattus norvegicus with 6 samples.

Results

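The transcription factors that define the identity of the pancreatic β-cell were examined in replicating and quiescent rat β-cells. The 10 genes were *Pdx1*, *Mafa*, *Nkx6-1*, *Nkx2-2*, *Neurod1*, *Isl1*, *Pax6*, *Foxa2*, *Mnx1* and *Rfx6*, and they were taken as every spot, other than control spots, that carried one of these names in the array files. All 10 of 10 were found, among 20110 named genes, and the 12 probes described here were among 45598. Of these, *Mafa* and *Rfx6* had 2 each and every other gene had 1. All 12 probes were a single spot of 60 bases, were well above background on all 6 arrays and were saturated on none, so no gene was lost to a filter on low values.

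Islets of young adult male Wistar rats were cultured overnight at basal glucose with EdU, a thymidine analogue that is built into newly made DNA, then dispersed, fixed, permeabilized and sorted. Cells gated as β-cells by size, granularity and Newport Green, a dye that binds zinc, were parted into EdU+ cells (replicating) and EdU- cells (quiescent). Both groups therefore shared EdU exposure, fixation with paraformaldehyde, the click reaction that stains EdU and the sort, and no cells without EdU were analysed here. Each of the 3 islet preparations pooled the islets of 4 rats and gave 1 replicating and 1 quiescent array, so that each group had 3 arrays, and the replicating fraction was made from far fewer cells. EdU marks cells that made DNA during the night, whatever their stage when they were sorted. After whole transcriptome amplification the cDNA carried Cy3 and was read on Agilent rat arrays of 1 colour.

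These factors bind DNA and together keep a β-cell a β-cell. *Pdx1*, *Mafa* and *Neurod1* act on the insulin gene itself, *Nkx6-1*, *Nkx2-2* and *Mnx1* hold back the programmes of other islet cells, and *Isl1*, *Pax6*, *Foxa2* and *Rfx6* are shared by several endocrine cell types of the islet. Loss of mature β-cell factors is known from stressed and dedifferentiated β-cells, and *Mafa* is known as a late marker of maturity that is sensitive to the state of the cell.

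No factor passed correction over all probes, and neither did any other of the 45598 probes. *Mafa* was the only gene called at an uncorrected threshold, 2.01-fold lower in replicating β-cells (log2 ratio -1.01 ± 0.35, SE, over 3 preparations). This was 1 of the 12 factor probes, beside 4.14% of all probes called lower. The other *Mafa* probe described was not called, and the call was lost under several alternatives. *Pdx1* was lower in all 3 preparations and *Nkx2-2* higher in all 3, neither past the threshold. *Neurod1*, *Foxa2* and *Rfx6* had the largest positive fitted ratios, which were 0.51, 0.28 and 0.06 without preparation 2.

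*Mafa* and *Rfx6* are the genes with more than 1 probe described, and their probes differ in place and base composition. Probes are named by the start position on the transcript that the array files give. Letters run 5′ to 3′, with G and C in capitals because the ratios are set against base composition further on, and *Mnx1* is printed as the single probe of a gene rich in these bases.

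Mafa, position 349: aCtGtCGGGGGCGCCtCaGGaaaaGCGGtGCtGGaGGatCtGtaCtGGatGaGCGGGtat
Mnx1, position 1106: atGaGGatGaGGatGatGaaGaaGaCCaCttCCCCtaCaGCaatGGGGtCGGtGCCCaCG
Rfx6, position 1339: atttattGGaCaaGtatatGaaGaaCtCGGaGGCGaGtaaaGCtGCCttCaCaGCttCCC
Rfx6, position 2342: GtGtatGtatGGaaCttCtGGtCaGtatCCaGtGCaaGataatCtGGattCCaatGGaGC

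On the rat build rn4, which the array files use, the *Mafa* probe of position 349 lay on the minus strand at chr7:113707769-113707828. G and C made up 60% of it, against 35% of the *Mafa* probe of position 2310 (chr7:113705809-113705868). The *Rfx6* probe of position 1339 held 45% G and C. Its 60 bases spread over 886 bases of the plus strand, chr20:30383516-30384401, so it spans a splice junction, while that of position 2342 (43.3% G and C) matched chr20:30390453-30390512 without a gap. The files give no genomic position for the *Mnx1* probe, which held 55% G and C.

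Values below are the deposited log2 values, background corrected and quantile normalized, and a ratio is replicating minus quiescent on that scale within a preparation. Arrays are listed in the order of preparations 1, 2 and 3. The fitted ratio, its standard error and p come from limma with the preparation as a block, and the adjusted p (Benjamini-Hochberg) takes in every one of the 45598 probes. A call means an unadjusted p of at most 0.05 with an absolute log2 ratio of at least 1. The study selected genes in the same way. The standard errors and p-values rest on the spread between these 3 preparations, with each probe's variance drawn toward a value common to all probes. They are therefore not the spread of a probe's own 3 ratios alone. An exact permutation test over 3 pairs cannot give a two-sided p below 0.25 and was not used. As the arrays read RNA of sorted pools, fewer cells that express a gene and less of its RNA per cell cannot be told apart.

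**Figure D1:**
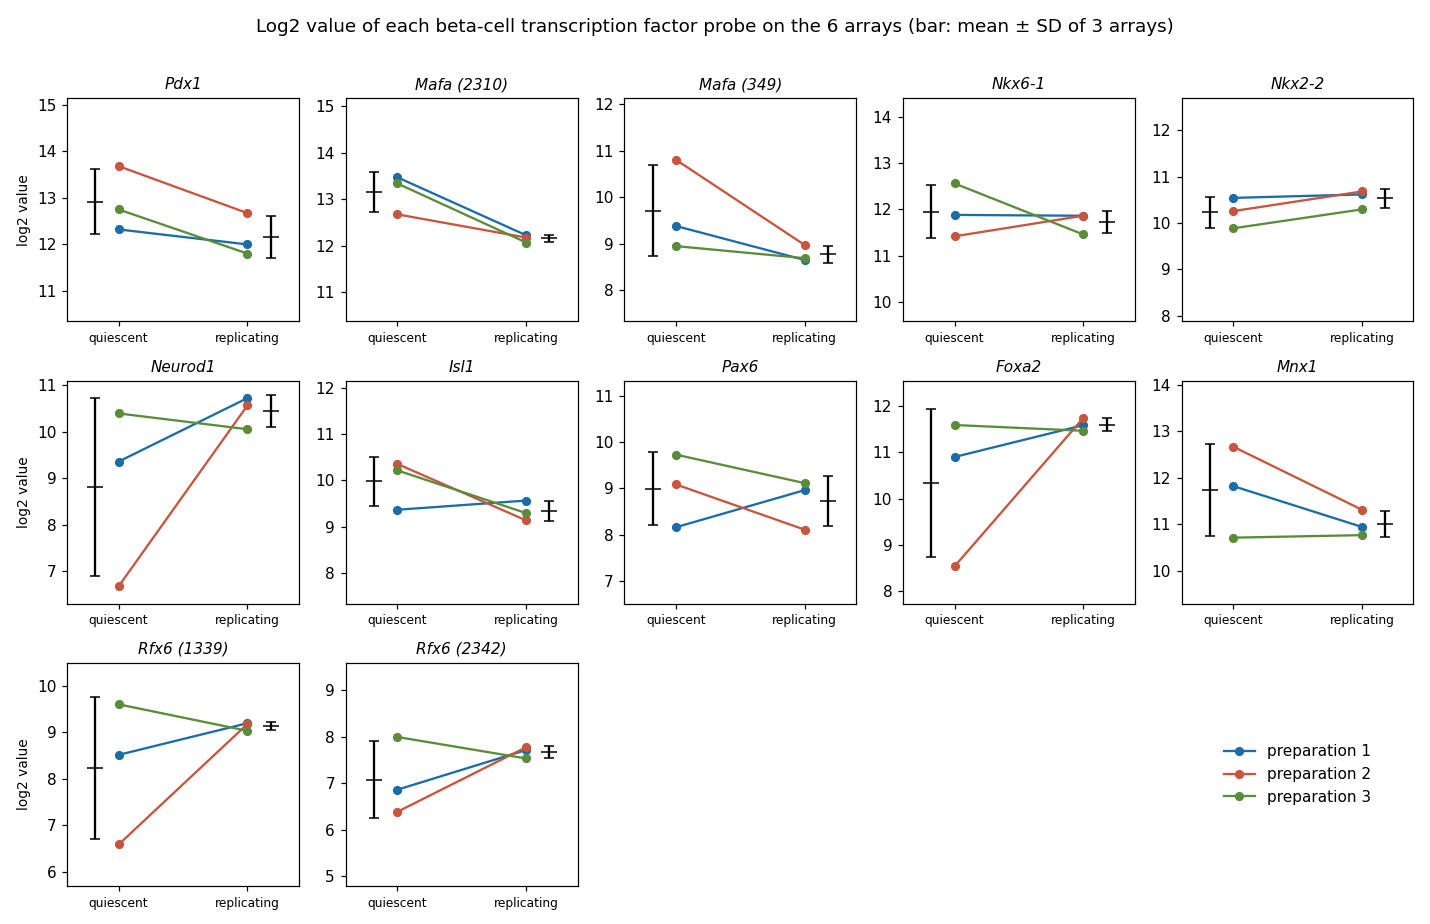
Log2 value (y axis, each panel with its own range of equal height) of the 12 probes on the 3 quiescent and 3 replicating arrays; lines join the 2 arrays of an islet preparation, and bars are the mean ± SD of 3 arrays. The quiescent values are more widely spread than the replicating values in every panel, and only the Mafa probe at position 2310 has groups that do not overlap.

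*Pdx1*, which is needed for the pancreas to form and later drives the insulin gene, had log2 values of 11.99, 12.67 and 11.80 on the replicating arrays and 12.32, 13.68 and 12.75 on the quiescent arrays. Each preparation had the lower value in its replicating cells, by ratios of -0.32, -1.01 and -0.95, although the groups overlapped because preparation 2 was high in both. The fitted ratio was -0.76 ± 0.34 (SE), with a 95% interval of -1.62 to 0.10 and adjusted p = 0.483 in limma. Its probe (position 1325) has no genomic position in the files.

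*Mafa* encodes a leucine zipper factor that binds the insulin promoter. At position 2310 it read 12.22, 12.17 and 12.07 on the replicating arrays against 13.47, 12.67 and 13.34 on the quiescent arrays. All replicating values lay below all quiescent values, and the replicating values were within 0.16 of each other. The preparations had ratios of -1.25, -0.50 and -1.27, for a fitted ratio of -1.01 ± 0.35 (SE, 95% interval -1.89 to -0.13), which was a call, with adjusted p = 0.483 in limma. This was the brightest *Mafa* probe and stands for the gene where 1 probe a gene is used.

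The *Mafa* probe of position 349 did not pass the threshold. It read 8.65, 8.97 and 8.69 on the replicating arrays and 9.38, 10.81 and 8.95 on the quiescent arrays, lower in replicating cells in all 3 preparations with groups that overlapped by a narrow margin. Its fitted ratio was -0.94 ± 0.42 (SE, 95% interval -2.02 to 0.13, adjusted p = 0.483 in limma). The ratios were -0.73, -1.84 and -0.26, so that preparation 2 had the largest difference at position 349 and the smallest at position 2310. Taken as the median over its probes, *Mafa* had a ratio of -0.94, no longer a call. This was the value of position 349, as the median also took in the *Mafa* probe that is not reported here.

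*Nkx6-1*, a homeodomain repressor that keeps β-cells from alternative islet fates, was read at chr14:9221609-9221668 on the plus strand. Its log2 values were 11.86, 11.86 and 11.46 on the replicating arrays and 11.88, 11.42 and 12.56 on the quiescent arrays. The groups overlapped and the preparations went different ways, with ratios of -0.02, 0.44 and -1.10, and the fitted ratio was -0.22 ± 0.42 (SE, 95% interval -1.29 to 0.84, adjusted p = 0.807 in limma). The spot on quiescent array 2 was marked as an outlier by the scanner software. With it left out, the fit rests on preparations 1 and 3 for this probe and gave -0.56.

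*Nkx2-2* encodes a homeodomain factor needed for β-cells to form and stay β-cells. It read 10.61, 10.68 and 10.29 on the replicating arrays and 10.54, 10.26 and 9.88 on the quiescent arrays, with its probe at chr3:135839448-135839507 on the minus strand. It was the only probe of the 12 that was higher in replicating cells in all 3 preparations, yet the groups overlapped. The differences were small, at 0.07, 0.42 and 0.41, with a fitted ratio of 0.30 ± 0.32 (SE, 95% interval -0.50 to 1.11, adjusted p = 0.647 in limma).

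*Neurod1*, a basic helix-loop-helix activator of the insulin gene, was read at chr3:62225107-62225166 (minus strand) and was the most uneven of the 10 genes. The replicating arrays held 10.73, 10.57 and 10.06 and the quiescent arrays 9.36, 6.67 and 10.40. Quiescent array 2 lay 3.72 below the median of the other 5 arrays, and the replicating values overlapped the quiescent value of preparation 3. The ratios of 1.37, 3.90 and -0.34 gave a fitted ratio of 1.64 ± 0.82 (SE, 95% interval -0.46 to 3.74, adjusted p = 0.484 in limma). Without preparation 2 it was 0.51.

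*Isl1*, a LIM homeodomain factor of all islet endocrine cells, had values of 9.57, 9.14 and 9.30 in replicating and 9.37, 10.36 and 10.22 in quiescent cells. Preparations 2 and 3 were lower in the replicating cells, by -1.22 and -0.92, and preparation 1 was higher by 0.20, so the groups overlapped. The fitted ratio was -0.65 ± 0.41 (SE, 95% interval -1.69 to 0.39, adjusted p = 0.508 in limma), read at chr2:48052237-48052296 on the minus strand.

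*Pax6*, a paired-box factor needed in α- and β-cells alike, behaved in the same mixed way. Values were 8.96, 8.11 and 9.11 on the replicating and 8.16, 9.09 and 9.73 on the quiescent arrays, with ratios of 0.80, -0.98 and -0.61. The groups overlapped over most of their ranges, and the fitted ratio was -0.26 ± 0.46 (SE, 95% interval -1.42 to 0.90, adjusted p = 0.790 in limma). The direction turned to 0.09 without preparation 2. Its probe matched chr3:91148400-91148459 on the plus strand.

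*Foxa2*, a forkhead factor that opens chromatin early in the pancreas, was the second gene that dropped on quiescent array 2. It read 11.58, 11.74 and 11.46 on the replicating arrays, and 10.90, 8.54 and 11.59 on the quiescent arrays. Quiescent array 2 was 3.04 below the median of the others, while in preparation 3 the 2 arrays differed by -0.12. The fitted ratio was 1.25 ± 0.69 (SE, 95% interval -0.51 to 3.02, adjusted p = 0.491 in limma), and 0.28 without preparation 2. The probe lay at chr3:136739040-136739099 on the minus strand.

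*Rfx6*, a winged-helix factor required for islet development and for insulin secretion, was likewise lowest on quiescent array 2 at both of its probes. Position 1339 read 9.20, 9.18 and 9.04 on the replicating and 8.52, 6.59 and 9.61 on the quiescent arrays. Position 2342 read 7.71, 7.78 and 7.53 against 6.86, 6.38 and 7.996. At both, preparations 1 and 2 were higher in replicating cells and preparation 3 lower, and the groups overlapped through quiescent array 3. Fitted ratios were 0.90 ± 0.65 (SE, 95% interval -0.75 to 2.56, adjusted p = 0.532 in limma) and 0.60 ± 0.46 (SE, 95% interval -0.58 to 1.77, adjusted p = 0.552 in limma). The first fell to 0.06 without preparation 2.

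*Mnx1*, a homeodomain factor that represses non-β genes, went the other way on quiescent array 2. Its values were 10.94, 11.31 and 10.77 in replicating and 11.82, 12.67 and 10.71 in quiescent cells. Preparations 1 and 2 were lower in the replicating cells, by -0.88 and -1.36, and preparation 3 was level at 0.05, so the groups overlapped. The fitted ratio was -0.73 ± 0.40 (SE, 95% interval -1.75 to 0.29, adjusted p = 0.490 in limma).

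**Figure D2:**
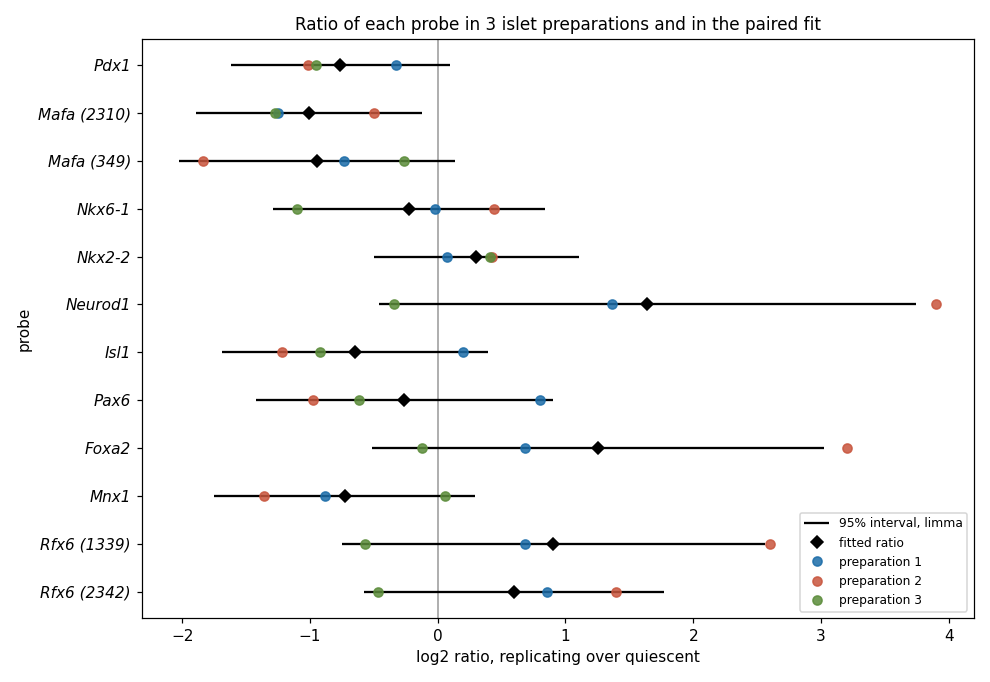
Log2 ratio of replicating over quiescent β-cells (x axis) for the 12 probes (y axis, with transcript positions where a gene has several); coloured points are the 3 preparations, diamonds the fitted ratio and lines its 95% interval in limma. The interval of the Mafa probe at position 2310, from -1.89 to -0.13, is the only one that leaves out 0, and preparation 2 stands far from the others for Neurod1, Foxa2 and the Rfx6 probe at position 1339.

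The counts of factor probes past each threshold were set beside the share of all probes past it. At an adjusted p under 0.05 in limma, 0 of 12 probes were called, as for all probes (0% of 45598). At an unadjusted p under 0.05, 1 of 12 passed, against 9.38% of all probes. No member probe was called higher (background 4.38%) and 1 was called lower (background 4.14%), the *Mafa* probe of position 2310. Higher values in all 3 preparations were seen for 1 probe of 12, against 15.4% of all probes, and lower values in all 3 for 3 probes of 12, *Pdx1* and both of *Mafa*, against 20.5%. Groups that did not overlap were found for 0 probes with replicating higher (background 8.89%) and for 1 with replicating lower (background 7.11%).

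Over 1 probe per gene, 4 of the 10 factors had a fitted ratio above 0 and 6 below. Their median was -0.24, beside -0.05 over the 20110 named genes. By preparation it was 0.14, -0.04 and -0.59, beside 0.04, -0.01 and -0.05 for all named genes. Preparation 3 thus had the lowest median of the factors. Without preparation 3 the median of the factors was 0.06.

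The factors varied more among quiescent than among replicating cells. The range over the 3 replicating arrays had a median of 0.40 on the log2 scale over the 12 probes, from 0.16 for *Mafa* at position 2310 to 1.00 for *Pax6*. Over the quiescent arrays the median was 1.59, from 0.66 for *Nkx2-2* to 3.72 for *Neurod1*. All 12 probes had the wider range on the quiescent arrays, as did 86.0% of all probes, whose median ranges were 0.41 and 1.25. Over all probes the replicating arrays correlated with each other at a Pearson's r of 0.967 to 0.986. Quiescent arrays 1 and 2 correlated at 0.822, 1 and 3 at 0.868 and 2 and 3 at 0.647. With replicating arrays 1, 2 and 3, quiescent array 3 correlated at 0.963, 0.943 and 0.968, closer than with either other quiescent array. Quiescent array 1 had 0.876, 0.887 and 0.869 with them, and quiescent array 2 had 0.667, 0.702 and 0.666. Well above background were 85.7% of probes on quiescent array 3, beside 96.4% and 98.5% on quiescent arrays 1 and 2. On the replicating arrays the share was 80.8% to 87.3%.

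Quiescent array 2 stood apart from the other arrays for many probes of the whole array, those of several factors among them. It was the lowest of the 6 arrays for 5 of the 12 probes, beside 34.6% of all probes, and the highest for 4, beside 34.3%. Both counts are near the background. On it 4 of the 12 probes lay at least 1 below the median of the other 5 arrays, beside 21.2% of all probes. Of these, *Neurod1*, *Foxa2* and *Rfx6* (position 1339) lay at least 2.5 below that median, which held for 5.46% of all probes. The 3 probes at least 1 above that median were *Pdx1*, *Mnx1* and the *Mafa* probe of position 349, and 27.1% of all probes were as far above.

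The factors that dropped on that array followed each other closely across arrays, as a description over 6 arrays that include it. Their shared drop there raises these values of r by itself. *Neurod1* and *Foxa2* had a Pearson's r of 0.992, *Foxa2* and *Rfx6* 0.983 and *Neurod1* and *Rfx6* 0.979. *Neurod1* and *Mnx1* ran in opposite directions at -0.906. Over the 5 arrays without quiescent array 2 the same pairs had an r of 0.941, 0.835, 0.799 and -0.639. *Pdx1* and *Mafa* had an r of only 0.286 over 6 arrays and 0.501 over 5, and *Nkx6-1* and *Isl1* went from 0.211 over 6 arrays to 0.861 over 5.

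Genes across the array were ranked by how closely they followed each factor over the 6 arrays, among 16236 named genes that were well above background on all of them. The highest of so many values of r over only 6 arrays are high by selection. A link between any of these genes and a factor was not tested. *Nkx6-1* was followed most closely by *Smarca2* (r = 0.995), *Crebbp* (0.990) and *Hipk1* (0.986), the first encoding a chromatin remodelling ATPase, the second a histone acetyltransferase and the third a kinase that binds homeodomain proteins. *Pdx1* was followed by the clock gene *Per1* (0.993), by *Zfp507* (0.993) and by the potassium channel gene *Kcnn3* (0.992). The closest to *Mafa* was the glycine transporter gene *Slc6a9* (0.987), before the uncharacterized *LOC102554055* (0.979) and *LOC103694354* (0.972). *Nkx2-2* had *Chn1* (0.995), *Ptprq* (0.992) and *Rbm25* (0.982), *Isl1* had *Arhgap21* (0.991), *Akap17a* (0.987) and *Egln1* (0.981), and *Pax6* had *Ano6* (0.987), *Utp14a* (0.986) and *Tlr1* (0.981).

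This ranking was most crowded for *Neurod1*, *Foxa2*, *Rfx6* and *Mnx1*. On quiescent array 2 their brightest probes lay -3.72, -3.04, -2.60 and 1.73 from the median of the other 5 arrays. An r of at least 0.95 was reached by 1476 genes for *Neurod1*, 1574 for *Foxa2*, 1773 for *Rfx6* and 1207 for *Mnx1*, compared with 61 for *Pdx1* and between 6 and 18 for each of the other 5. Closest to *Neurod1* were *Eif3e*, *Fermt2* and *Uimc1* (each 0.999), closest to *Foxa2* were *M6pr* (0.9996), *Gramd4* (0.999) and *LOC102548321* (0.999), closest to *Rfx6* were *Litaf*, *Erlin2* and *Etnk1* (each 0.999), and closest to *Mnx1* were *Col11a2*, *Stk32b* and *Olr1564* (each 0.999). *Olr1564* is an olfactory receptor gene and *Col11a2* a cartilage collagen gene.

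Base composition moved with the ratios. The share of G and C in the probe ran from 35% to 60% over the 12 probes (median 44.2%). Its Pearson's r with the log2 ratio over these probes was -0.239, -0.614 and 0.502 in preparations 1, 2 and 3, beside -0.188, -0.174 and 0.173 over all probes. The points share their arrays, and 4 of the 12 share a gene with another. In preparation 2 the probes of *Neurod1*, *Foxa2* and *Rfx6*, with 38.3% to 45% G and C, had the highest ratios, and those of *Mnx1* and of *Mafa* at position 349, with 55% to 60%, the lowest. Other probes ran against this order, as *Mafa* at position 2310 (35% G and C) had -0.50 there, *Pdx1* (43.3%) -1.01 and *Nkx2-2* (55%) 0.42.

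Each probe was also compared with others of like composition. The ratio of *Neurod1* in preparation 2 was 3.92 above the median of the 8077 probes within 2 percentage points of its G and C share, and that of *Foxa2* was 3.22 above. *Mafa* at position 2310 was 1.48, 0.62 and 1.14 below its like probes in the 3 preparations. With the values of each array corrected for G and C, the fitted ratio was -1.19 for *Mafa* at position 2310, -0.58 for *Pdx1* and 1.61 for *Neurod1*, and *Mafa* stayed the only factor called.

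**Figure D3:**
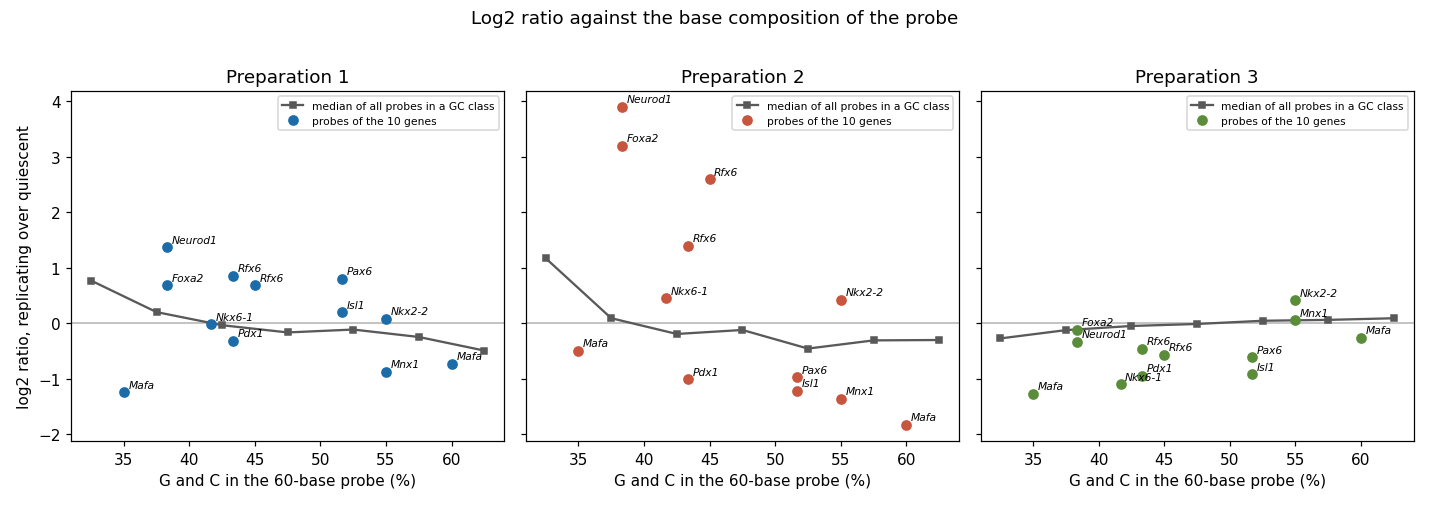
Log2 ratio of replicating over quiescent β-cells (y axis) against the share of G and C in the 60-base probe (x axis, percent) in the 3 preparations; coloured points are the 12 probes, and the grey line joins the medians of all probes in classes of composition. In preparation 2 the factor probes run from 3.90 for Neurod1 down to -1.84 for Mafa at position 349.

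Genes that work with these factors were described next. Of 20 partners and cofactors, such as *Ldb1*, which joins *Isl1* in a complex, 1 was called higher and 0 lower, beside 5.27% and 3.02% of the 20110 named genes, so that 1 of 20 is near the background. Their ratios were above 0 for 14 and below for 6, with a median of 0.43. The gene called was *Pias1*, a SUMO ligase, with a ratio of 1.53 ± 0.46 (SE, adjusted p = 0.483 in limma), which was 1.43 and no call without preparation 1. Among 31 other islet and pancreas transcription factors 0 were called in either direction, and their median was 0.01. *Insm1* of that list was not found under its name and was not analysed here.

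Genes of the β-cell's secretory work followed. Of 19 genes of secretion and maturity 1 was called higher and 0 lower, again near the background, with a median of -0.07. This was *Chga*, which encodes a protein of secretory granules, with a ratio of 1.00 ± 0.33 (SE, adjusted p = 0.483 in limma) at the edge of the threshold. It was no call under 7 of 14 alternatives, among them the fits without preparation 1 (1.12) and without preparation 3 (0.80). The insulin genes were near the top of the scale in both groups. *Ins1* was at 16.84 ± 0.23 (SD of 3 arrays) in replicating and 16.60 ± 0.65 in quiescent cells, with a ratio of 0.25 (95% interval -0.64 to 1.14, adjusted p = 0.733 in limma), which was -0.01 without preparation 2. *Ins2* had a ratio of 0.42 (95% interval -0.46 to 1.30, adjusted p = 0.570 in limma), which was 0.20 without preparation 2. *G6pc2* was not found under its name.

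Markers were set beside the labels and the sort. All 8 proliferation genes were called higher in replicating cells, with a median ratio of 3.04 and values of 2.33 for *Mki67* and 3.76 for *Top2a*. These calls were no independent check, as the study listed *Top2a*, *Cdk1* and *Plk1* among its top genes from these arrays. It also reported *Mki67* and *Pcna* as higher by quantitative PCR. Of the 3 housekeeping genes of the study 0 were called, with a median of 0.30. Markers of other cells were also called, and *Isl1*, *Pax6*, *Neurod1*, *Nkx2-2*, *Foxa2* and *Rfx6* are made in other islet cells too. Of 10 α-cell markers 2 were called higher, *Gcg* by 2.39 (12.99 ± 0.80 in quiescent and 15.38 ± 1.09 in replicating cells, SD) and *Gc* by 1.86. The 10 had ratios above 0 for 7 and below for 3 (median 0.57). Of 8 δ-, PP- and ε-cell markers 4 were called higher, *Sst* by 1.75, *Rbp4* by 1.49, *Ppy* by 1.21 and *Fxyd6* by 1.81, while the list had 5 ratios above 0 and 3 below (median 0.89).

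Markers of non-endocrine cells that were called were also higher in replicating cells. Of 12 fibroblast and stellate markers 5 were called higher, *Col1a2* by 2.93, *Col3a1* by 3.07, *Col6a3* by 3.07, *Mgp* by 1.62 and *Vim* by 1.87, and all 12 had ratios above 0 (median 1.25). *Col1a1* had a ratio of 1.54 that was not called (adjusted p = 0.483 in limma), but it was called under 5 of 14 alternatives, among them at 2.45 without preparation 2. Of 10 endothelial and immune markers *Cd68* (1.32) and *Cd74* (1.45) were called higher, with 8 ratios above 0 and 2 below (median 0.68). Of 14 acinar and duct markers *Prss1* (1.56) and *Spp1* (2.09) were, with 7 ratios above 0 and 7 below (median 0.06). None of these lists had a gene called lower. Without preparation 1 the calls of *Gc*, *Sst*, *Ppy*, *Prss1*, *Cd68*, *Cd74*, *Mgp* and *Vim* were lost, and that of *Gc* also without preparation 2 (0.98), whereas *Gcg*, *Fxyd6*, *Spp1*, *Col1a2*, *Col3a1* and *Col6a3* were called under all 14 alternatives. The mean log2 value over a list lay between 9.10 and 10.35 on the replicating arrays and between 8.14 and 8.58 on the quiescent arrays for fibroblast markers, 8.88 to 9.36 against 8.39 to 8.68 for δ-, PP- and ε-cell markers, and 8.89 to 9.14 against 8.24 to 8.65 for endothelial and immune markers. For α-cell markers (9.21 to 9.79 against 8.23 to 9.25) and acinar and duct markers (9.05 to 10.49 against 8.93 to 10.45) the groups overlapped. *Gcg*, *Sst*, *Ppy*, *Col1a1* and *Col3a1*, which define these cells, were well above background on all 6 arrays. Most probes were, as between 80.8% and 98.5% of all probes passed that mark on an array. Their part in the ratios of the 10 factors was not tested.

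The ratios of the factors were set beside those under 15 other ways of processing the data. Several of these leave a ratio as it is by construction, such as the filter, the variance trend and the fit with no block, and 9 or 10 moved a gene's ratio by over 0.001. *Mafa* ran between -1.26 and -0.81 and *Pdx1* between -0.98 and -0.58. *Isl1* ran between -1.07 and -0.36 and *Mnx1* between -1.12 and -0.41. The range was 0.18 to 0.49 for *Nkx2-2*, 0.51 to 2.63 for *Neurod1*, 0.28 to 1.94 for *Foxa2* and 0.06 to 1.64 for *Rfx6*. *Nkx6-1*, from -0.56 to 0.21, and *Pax6*, from -0.79 to 0.09, changed direction under 1 alternative each. The call of *Mafa* was lost with a normexp offset of 0 (-1.02) and of 16 (-1.01), and without preparation 1 (-0.89) or 3 (-0.87). It was also lost with processed or normexp values scaled to the 75th percentile (-0.81 and -0.83). The median over its probes (-0.94), which is the value of position 349, was no call either. *Neurod1* was called at 2.63 without preparation 3 and at 1.21 with normexp values scaled to the 75th percentile. *Mnx1* was called at -1.12 and the *Rfx6* probe of position 2342 at 1.12 without preparation 3. Calls were also more frequent over the whole array there. Of 45598 probes 10471 were called without preparation 3 and 6978 with that scaling, beside 3884 as reported. Both scalings to the 75th percentile moved the median over all probes, to -0.74 with processed and -0.41 with normexp values. *Mafa* lay below that median in both, and *Pdx1*, at -0.59 and -0.62, above the first and below the second.

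**Figure D4:**
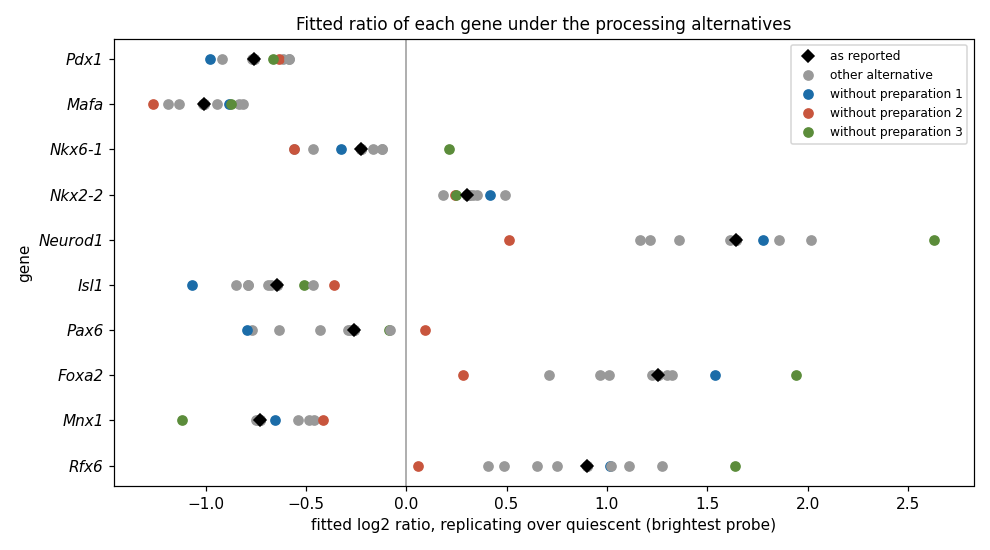
Fitted log2 ratio of replicating over quiescent β-cells (x axis) of the 10 genes (y axis, brightest probe), as reported (diamond), under each alternative processing (grey) and with 1 preparation left out (coloured). Leaving out preparation 2 brings Neurod1, Foxa2 and Rfx6 to 0.51, 0.28 and 0.06. Over all alternatives Mafa runs from -1.26 to -0.81, the latter with processed values, where the median of all probes was -0.74.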

How the data were processed

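RNA of replicating and quiescent β-cells from 3 islet preparations was measured on 6 Agilent arrays of 1 colour. The authors deposited intensity values per spot, read with Agilent Feature Extraction 10.7.3.1 without normalization between arrays. A table of log2 values, which the authors made by normexp background correction (offset not given in the sources used here) and quantile normalization, was the source of all values. Starting from the mean intensities, normexp (offset 50) and quantile normalization gave values here with a Spearman's rho of 1 to that table on each array and a largest difference of 0.000245. Between 80.8% and 98.5% of probes were well above background on an array, and none was saturated. The number of arrays limits the precision.

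Control spots (4259 of 62976) were left out and the spots of a probe averaged, which gave 45598 probes. A paired model, with the preparation as the block, was fitted to all probes in limma 3.58.1 with R 4.3.3, after the study's methods. The study's methods state that the cells came from separate islet preparations and that the test was paired. Arrays were paired here by the replicate number in their labels, which do not name a preparation. Within a pair the deviations from the group means correlated at 0.0552, 0.233 and 0.252. Genes have the names of the array files, matched to RefSeq symbols of the assembly GRCr8 where older. Where a gene had several probes, the probe with the highest mean over all 6 arrays was used. Base composition was read from the probe sequences in the array files.

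All factors are reported, with all their probes but 1 of *Mafa*, which is not reported here. Of the other lists, genes called, hormone genes and defining markers are named, as are the 3 genes most like each factor by Pearson's r. The members and lists were chosen with earlier results of these data known. The fit was tested on simulated data. Alternatives were normexp offsets of 0 and 16, scanner signals, scaling to the 75th percentile of processed or normexp values, cyclic loess, a filter on dim probes, outlier spots left out, a fit with no block, a variance trend in the fit, a gene's median probe and each preparation left out. A correction for G and C content and array quality weights were chosen after seeing the data. All arrays lay on 1 slide, so no slide block was fitted.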

Additional observations from a re-analysis of the deposited data

How the results depend on the processing

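All 12 factor probes were well above background. Of the 12 factor probes 1 was called as reported, 0 with a normexp offset of 0, an offset of 16 or Feature Extraction's processed signal, and 0 to 3 with 1 preparation left out. At the adjusted p 0 were called under each of the 14 alternatives fitted to all probes, array quality weights aside. Genes called over the 10 comparison lists numbered 25, or 15 with the processed signal and 12 to 38 with a preparation left out. Over the whole array 3884 probes were called, 6978 with normexp values scaled to the 75th percentile, and 574 to 10471 with a preparation left out. At the adjusted p 0 probes passed, but 312 did with that scaling, 233 with cyclic loess, 32 with a variance trend and 0 to 80 with a preparation left out. The causes were not tested. The share of calls that were higher was 51.4%, but 17.4% with the processed signal, 21.2% with the 75th percentile, and 88.7%, 64.1% and 47.2% without preparations 1, 2 and 3. Both scalings moved the median of all probes, from -0.08 to -0.74 and -0.41, a shift beside which each ratio under them is to be read. With 1 preparation left out *Pax6* ran from -0.79 to 0.0930 and *Ins1* from -0.00547 to 0.42, reversed without replicate 2, and *Nkx6-1* from -0.56 to 0.21, reversed without replicate 3. The median of the factors was -0.24, and -0.49 to 0.06 with a preparation left out.

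Without the replicate block, 92 probes passed the adjusted p in place of 0, and 68.0% of calls were higher; *Mafa* was again the only factor called. Array quality weights were tried and not used: both arrays of a preparation received the same weight (8.50, 0.299 and 0.394), and 23734 of 45598 probes then passed the adjusted p.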
